A study of Mus musculus with 4 samples.

Results

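The genes described here are 60 factors of ribosome biogenesis, chosen by name, with earlier results of these data known. Each of the 60 was found once among the 55359 gene rows of the count table, and all 60 passed the filter on low counts, with at least 977 counts in each library. They were divided by role into 8 genes of RNA polymerase I transcription, 11 genes of small nucleolar ribonucleoprotein particles (snoRNP) and nucleolar RNA-binding proteins, 22 genes of the small-subunit processome and 19 genes of large-subunit assembly.

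Ribosomes are built in the nucleolus. RNA polymerase I transcribes a long precursor of ribosomal RNA (rRNA), and snoRNPs modify its nucleotides and guide its folding. The processome cuts out and folds the RNA of the small subunit while other factors assemble the large subunit. Growing and dividing cells, B-cell precursors among them, use these factors heavily, and the transcription factor MYC is known to activate many of their genes.

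T8 is a pre-B-cell leukemia line (pB-ALL) grown out of a single primary tumor of an *Irf4*-deficient mouse, and both groups carry the genotype Irf4-/-. The cells were transduced with a retrovirus coding for GFP alone (EV-RV, 2 libraries) or for GFP plus IRF4 (IRF4-RV, 2 libraries). Bulk RNA was sequenced a day later, per the study from cells that were still viable. The study reports that T8 cells expressing IRF4, unlike control cells, were lost over time, with apoptosis seen by staining. The part of this loss in the values below was not tested. The comparison of the 2 groups asks what changes in the leukemia transcriptome when IRF4 is put back. The titles and the tissue label name T8, whereas the protocol text names T11 cells, and whether the cells were sorted for GFP before RNA extraction is not given in the sources used here.

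The libraries held between 31230223 and 37817752 counts. Levels are given as CPM, counts scaled to library size after TMM factors, which correct for a few abundant RNAs taking up reads. *Irf4*, the gene delivered by the vector, stood at 242 and 241 CPM with EV-RV and at 2820 and 2490 CPM with IRF4-RV, higher in both libraries of the latter (log2 fold change 3.46, edgeR adjusted p = 1.14e-06). In the IRF4-RV libraries, counts per gene do not separate vector RNA from RNA of the cells' own locus. The EV-RV vector codes for GFP alone, yet *Irf4* had 8070 and 7600 counts in those libraries of cells labeled Irf4-/-. The source of these counts was not tested. Of the 10 B-progenitor markers examined, 9 passed the filter, and *Rag1* had at most 1 count in a library. Of the 9, *Igll1* (log2 fold change -1.3) and *Vpreb1* (-1.49), the surrogate light chain genes, fell and *Ptprc* (0.53) rose. The 8 T and NK cell markers summed to between 38 and 58 counts a library and the 3 erythroid markers to between 122 and 186. The 9 myeloid markers summed to 6 and 5 counts in the EV-RV libraries, and to 74 and 62 in the IRF4-RV libraries. *Ly6g* alone gave 71 and 58 of these counts, and *Adgre1*, *S100a8* and *S100a9* had 0 counts throughout. The line was raised on stromal feeder cells, which per the study it later no longer needed. Of the 8 stromal markers, *Lum* and *Dcn* had at most 2 counts in a library, unlike *Col1a1*, *Col1a2* and *Cxcl12*. The 8 summed to 1564 and 2760 counts in the EV-RV libraries, and to 1566 and 7944 in the IRF4-RV libraries. IRF4-RV replicate 2 thus stood highest in stromal RNA, at 0.021% of its counts, and the median change of the 60 genes is also given without it. The source of the stromal counts and the part of these markers in the results were not tested.

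Ribosome biogenesis factors fell after IRF4-RV transduction. Of the 60 genes, 52 were called lower and 0 higher with edgeR's quasi-likelihood test at a Benjamini-Hochberg adjusted p under 0.1 (0 higher also at an unadjusted p under 0.05, and 0 with DESeq2). Over all 14637 genes tested, 13.7% were called lower and 16% higher, 29.7% in all. All 60 log2 fold changes were negative, from -0.91 for *Rrs1* to -0.01 for *Taf1d*, with a median of -0.48, whereas the median of all genes tested was 0.007. The 52 falls amounted to between 15.8% for *Pes1* and 46.6% for *Rrs1*, so no member fell by as much as 1 on the log2 scale. Both IRF4-RV libraries lay below both EV-RV libraries for 57 of the 60 genes, against 29.9% of all genes tested, and both lay above for 0, against 31.3%. The members are well expressed, and among the 5292 genes tested within their range of mean level, from 32.6 to 2230 CPM, 19% were called lower and 20.3% higher.

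The summed levels were alike in the 2 libraries of a group. The 60 genes together took 1.27% and 1.22% of all counts in the EV-RV libraries, and 0.898% and 0.885% in the IRF4-RV libraries. Summed levels were 12100 and 12100 CPM with EV-RV and 9220 and 9190 CPM with IRF4-RV. Without IRF4-RV replicate 2, the library with the most stromal RNA, the median log2 fold change was again -0.48. Fewer of the 60 genes, and fewer of all genes tested, were then called lower. With library size alone in place of TMM, 57 members and 19.6% of all genes were called lower, and 2867 genes were lower and 1743 higher, the opposite balance to the 2009 lower and 2340 higher genes with TMM. The level of a member and its change were only weakly related across the 60 genes (Pearson's r = 0.12, given as a description, since all values come from the same 4 libraries). In bulk RNA, fewer cells with a high level of these transcripts cannot be told apart from less transcript per cell.

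**Figure D1:**
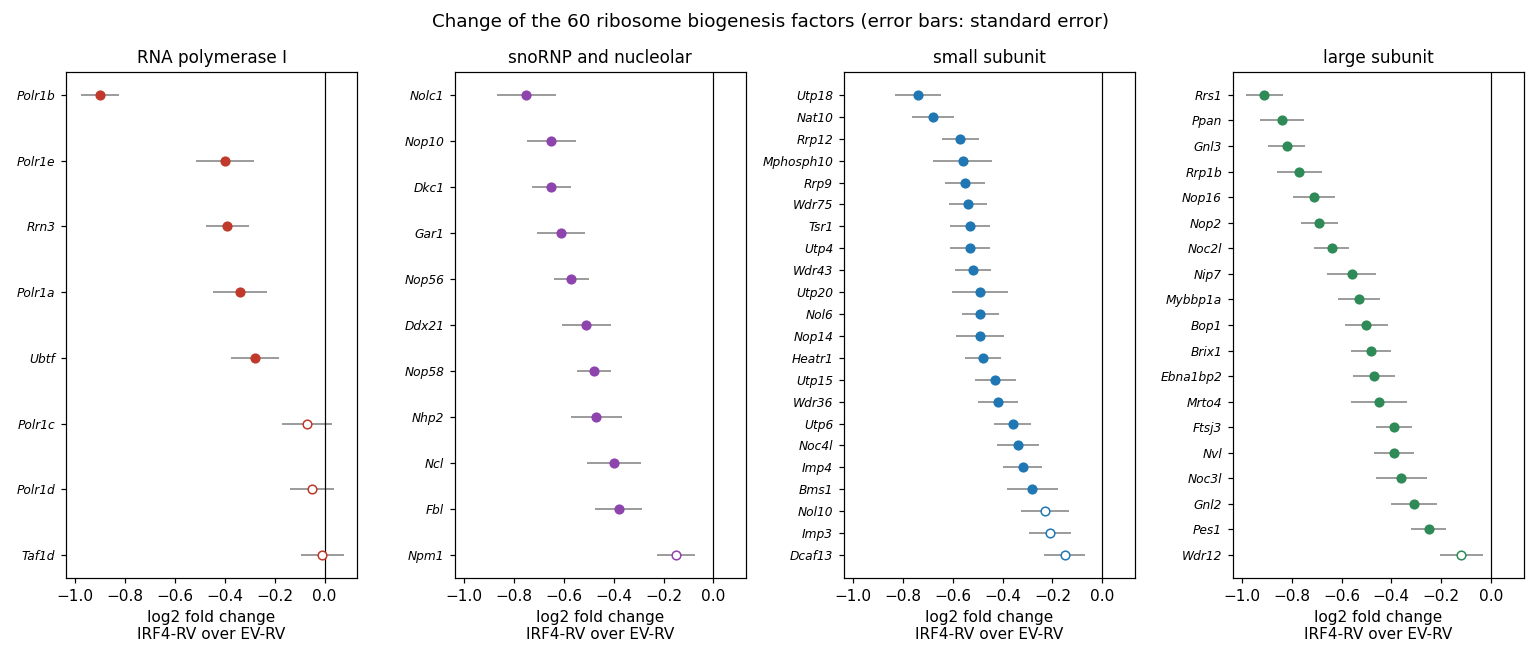
Log2 fold change (x axis, IRF4-RV over EV-RV) of each of the 60 genes (y axis), in 4 panels by role. Bars are standard errors, filled points were called lower by edgeR at an adjusted p under 0.1 and open points were not called. All 60 points lie left of 0 and 52 are filled.

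**Figure D2:**
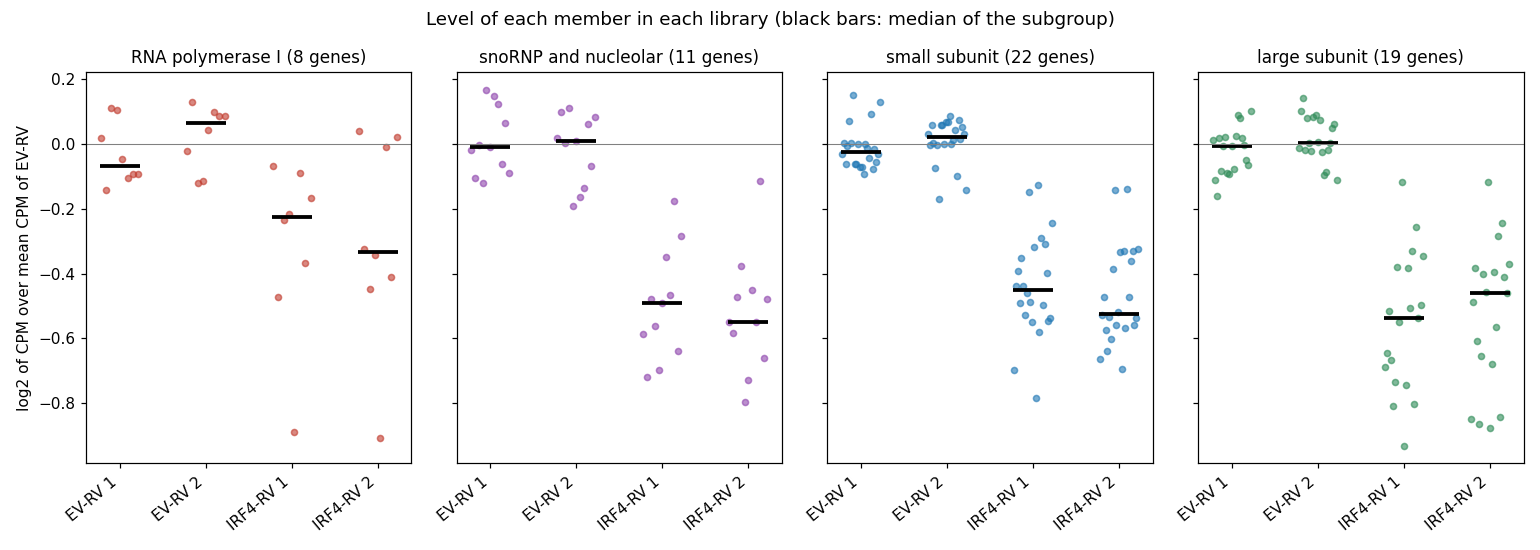
Level of each gene in each library as the log2 of its CPM over the mean CPM of the 2 EV-RV libraries (y axis), by library (x axis) and role. Points are genes and black bars are medians. In the snoRNP, small-subunit and large-subunit panels every gene lies below 0 in both IRF4-RV libraries.

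RNA polymerase I genes split into 5 that fell and 3 that were not called, beside 13.7% of all genes tested called lower. *Polr1b* (ENSMUSG00000027395, GRCm38 chromosome 2, 129100995 to 129126594, plus strand) encodes the second-largest subunit of the enzyme. It stood at 139 and 148 CPM with EV-RV and at 77.4 and 76.4 CPM with IRF4-RV. Both IRF4-RV libraries were far below the EV-RV libraries (log2 fold change -0.9, standard error 0.0763, edgeR adjusted p = 0.000173). *Polr1a*, the largest subunit, went from 121 and 103 to 95.1 and 82.2 CPM, a much smaller change of -0.34 (standard error 0.107, edgeR adjusted p = 0.0565). *Polr1e*, a subunit particular to this polymerase, went from 36.4 and 44 to 29 and 32.1 CPM (log2 fold change -0.4, edgeR adjusted p = 0.0447). *Rrn3*, which carries the polymerase to the initiation complex, went from 98.1 and 111 to 81 and 78.7 CPM (log2 fold change -0.39, edgeR adjusted p = 0.0158). *Ubtf*, the factor that binds ribosomal DNA along its length, went from 206 and 177 to 165 and 151 CPM (log2 fold change -0.28, edgeR adjusted p = 0.0755). Of these 5, *Polr1b* and *Rrn3* stayed called with each library left out in turn. *Polr1a* was not called without EV-RV replicate 1 (edgeR adjusted p = 0.228) or IRF4-RV replicate 2 (0.29), *Ubtf* not without the same libraries (0.278 and 0.351), and *Polr1e* not without EV-RV replicate 2 (0.195) or IRF4-RV replicate 1 (0.105).

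The 3 RNA polymerase I genes that were not called had overlapping groups. *Polr1c* and *Polr1d* encode the subunits that RNA polymerases I and III share. *Polr1c* stood at 82.2 and 93.2 CPM with EV-RV and 78.1 and 89 CPM with IRF4-RV (log2 fold change -0.07, standard error 0.0991). *Polr1d* stood at 256 and 295 CPM with EV-RV and 259 and 274 CPM with IRF4-RV (-0.05, standard error 0.0878). *Taf1d*, a subunit of the promoter selectivity factor SL1, stood at 46.8 and 45.5 against 44 and 47.5 CPM (-0.01, standard error 0.0866). The exons of *Taf1d* contain several small RNA genes on the same strand, so its count may include their reads.

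Ratios of counts within a library do not depend on scaling, and 9 pairs of members, chosen after their values had been seen, were compared in this way without a test. The groups overlapped for 2 of the 9 pairs. *Polr1b* had 1.69 and 1.59 counts per count of *Polr1c* in the EV-RV libraries, and 0.992 and 0.859 in the IRF4-RV libraries. Against *Polr1d* the ratios were 0.543 and 0.502 in the EV-RV libraries, and 0.299 and 0.279 in the IRF4-RV libraries. The second-largest subunit thus had a lower ratio to these 2 shared subunits in both IRF4-RV libraries. The groups overlapped for the largest subunit, where the ratio of *Polr1a* to *Polr1c* was 1.47 and 1.11 in the EV-RV libraries, and 1.22 and 0.924 in the IRF4-RV libraries. Other shared subunits, not members, were called lower, *Polr2e* (log2 fold change -0.29), *Polr2f* (-0.46), *Polr2h* (-0.38) and *Polr2l* (-0.33), or not called, *Polr2k* (-0.1). Of further polymerase I subunits, also not members, *Cd3eap* (-0.61) was called lower, and *Twistnb* (-0.23) and *Znrd1* (0.26) were not called.

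**Figure D3:**
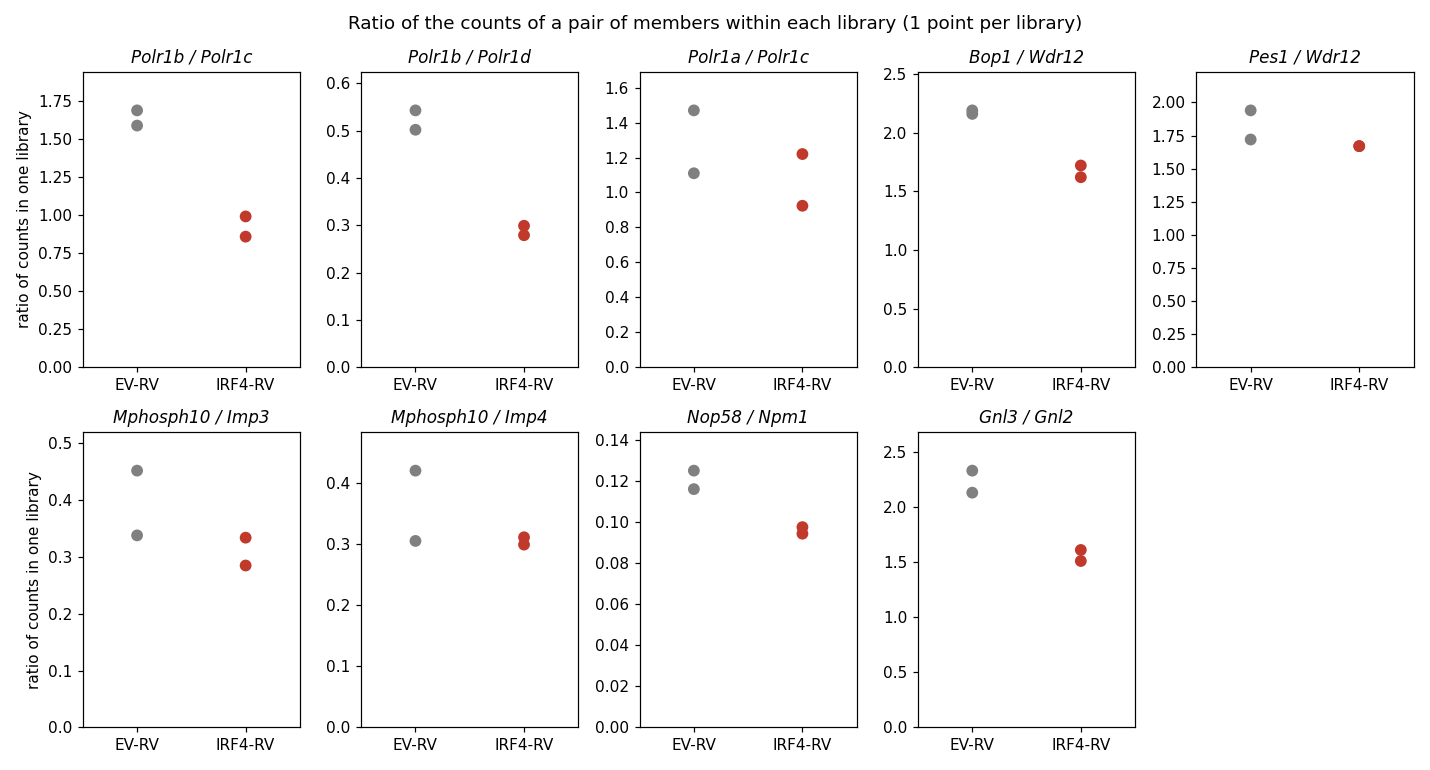
Ratio of the counts of 2 members within a library (y axis, from 0), with 1 point for each of 2 EV-RV and 2 IRF4-RV libraries (x axis), for all 9 pairs computed, which were chosen after their values had been seen. The groups overlap for *Polr1a* over *Polr1c* and for *Mphosph10* over *Imp4*, and *Polr1b* over *Polr1c* is at least 1.59 with EV-RV and at most 0.992 with IRF4-RV.

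Of the 11 snoRNP and nucleolar genes 10 fell, against 13.7% of all genes tested. The median log2 fold change was -0.51 over all 11. The summed level was 6130 and 6030 CPM with EV-RV and 4840 and 4810 CPM with IRF4-RV. snoRNPs come in a pair of families. H/ACA particles turn uridine into pseudouridine and share 4 core proteins. C/D particles methylate ribose and are built on *Fbl*, *Nop56*, *Nop58* and *Snu13*, the last of which is not a member. All 4 H/ACA core genes fell, from -0.65 to -0.47, and so did the 3 C/D members, from -0.57 to -0.38. *Snu13* changed less, by -0.27, and was called lower by little (edgeR adjusted p = 0.0995).

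*Nolc1*, a chaperone that moves snoRNPs between Cajal bodies and the nucleolus, had the largest fall of the subgroup (ENSMUSG00000015176, GRCm38 chromosome 19, 46075863 to 46085530, plus strand). It went from 182 and 142 CPM to 99.9 and 93.2 CPM (log2 fold change -0.75, standard error 0.118, edgeR adjusted p = 0.00351). The EV-RV libraries themselves were far apart for this gene, with replicate 1 27.7% above replicate 2. *Dkc1*, the pseudouridine synthase dyskerin, went from 202 and 184 to 124 and 122 CPM (-0.65, standard error 0.0791, edgeR adjusted p = 0.00107). *Nop10*, the smallest H/ACA protein, went from 92 and 106 to 60.1 and 66.1 CPM (-0.65, standard error 0.0972, edgeR adjusted p = 0.00271). *Gar1*, which joins the particle last, went from 91.9 and 93 to 65.8 and 55.8 CPM (-0.61, standard error 0.0963, edgeR adjusted p = 0.0036). Among the C/D proteins *Nop56* changed most, from 221 and 227 to 149 and 153 CPM (-0.57, standard error 0.0708, edgeR adjusted p = 0.00113). In all 5 of these genes both IRF4-RV libraries lay below both EV-RV libraries, as in 29.9% of all genes tested.

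*Npm1*, *Fbl* and *Ncl* had the 3 smallest changes of the subgroup. *Npm1* encodes nucleophosmin, an abundant nucleolar phosphoprotein and chaperone. It stood at 2240 and 2440 CPM with EV-RV and at 2070 and 2160 CPM with IRF4-RV and was not called (log2 fold change -0.15, standard error 0.076, edgeR adjusted p = 0.22). Without EV-RV replicate 1 it was called (edgeR adjusted p = 0.0713). *Ncl*, nucleolin, went from 1650 and 1330 to 1170 and 1090 CPM (-0.4, edgeR adjusted p = 0.0337). *Fbl*, the methyltransferase fibrillarin, went from 448 and 505 to 391 and 342 CPM (-0.38, edgeR adjusted p = 0.0256). Neither stayed called without IRF4-RV replicate 2 (edgeR adjusted p = 0.11 for *Ncl* and 0.189 for *Fbl*). *Npm1* has processed pseudogenes and how multi-mapping reads were counted is not known from the sources, so its count is uncertain. The other 3 called genes were *Ddx21*, a nucleolar RNA helicase (-0.51), *Nop58* (-0.48) and *Nhp2* (-0.47). The ratio of *Nop58* to *Npm1* did not overlap between groups, at 0.125 and 0.116 counts per count in the EV-RV libraries, and 0.0975 and 0.0943 in the IRF4-RV libraries.

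Levels of different genes can be set side by side only per length. Divided by the length in kilobases of the longest protein-coding transcript, *Npm1* led the EV-RV libraries at 1430 CPM per kilobase, followed by *Fbl* at 398 and *Nhp2* at 369. *Polr1d* (230) led its subgroup, *Imp3* (125) the processome and *Mybbp1a* (104) the large-subunit genes. The lowest levels were those of the large-subunit genes *Nvl* (6.79), *Noc3l* (9.2) and *Wdr12* (9.27). Several of these places depend on the length taken. Over all annotated exons *Fbl* stood at 113 and *Nhp2* at 335 CPM per kilobase, *Noc2l* (89.9) was above *Mybbp1a* (78), and the lowest levels were those of *Nvl* (4.73), *Taf1d* (5.16) and *Dcaf13* (6.36).

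Of the 22 processome genes 19 fell, against 13.7% of all genes tested. The median log2 fold change was -0.49 over all 22. Both IRF4-RV libraries lay below both EV-RV libraries for each of the 22, against 29.9% of all genes tested. The summed level was 2370 and 2420 CPM with EV-RV and 1780 and 1740 CPM with IRF4-RV. *Utp18*, a WD-repeat protein of the UTP-B complex, had the largest fall (ENSMUSG00000054079, GRCm38 chromosome 11, 93859243 to 93885766, minus strand). It went from 76.3 and 86.3 to 47.2 and 50.2 CPM (-0.74, standard error 0.0919, edgeR adjusted p = 0.00114). *Nat10*, which acetylates cytidines of the small-subunit rRNA, went from 55.8 and 58.2 to 35.1 and 36 CPM (-0.68, standard error 0.0833, edgeR adjusted p = 0.00108). *Rrp12*, an export and processing factor built of HEAT repeats, went from 106 and 108 to 71.5 and 72.2 CPM (-0.57, standard error 0.0736, edgeR adjusted p = 0.00136). *Mphosph10* went from 50.4 and 40.4 to 31.5 and 29.9 CPM (-0.56, standard error 0.119, edgeR adjusted p = 0.0123). *Rrp9*, a protein of the U3 snoRNP, went from 97.4 and 105 to 69.3 and 68.7 CPM (-0.55, standard error 0.079, edgeR adjusted p = 0.00218).

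The UTP-A complex binds the nascent rRNA first, and the 5 members in it all fell by a like amount. They ranged from -0.54 for *Wdr75* to -0.43 for *Utp15*, with *Utp4*, *Wdr43* and *Heatr1* between them. The 3 members in UTP-B all fell, with *Wdr36* at -0.42 and *Utp6* at -0.36 beside *Utp18*. *Nol11* (-0.36) of UTP-A and *Pwp2* (-0.53), *Wdr3* (-0.38) and *Tbl3* (-0.33) of UTP-B, which are not members, were also called lower. In the MPP10 complex *Mphosph10* and *Imp4* (-0.32) fell and *Imp3* did not pass the test. *Imp3* stood at 112 and 119 CPM with EV-RV and at 94.4 and 105 CPM with IRF4-RV (-0.21, standard error 0.0854, edgeR adjusted p = 0.122). The ratio of *Mphosph10* to *Imp3* kept the groups apart by little, at 0.452 and 0.338 in the EV-RV libraries, and 0.334 and 0.285 in the IRF4-RV libraries. For *Mphosph10* over *Imp4* the groups overlapped, at 0.42 and 0.305 against 0.311 and 0.299.

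Besides *Imp3*, the processome genes that were not called were *Nol10* and *Dcaf13*, both WD-repeat proteins. *Nol10* stood at 41.4 and 41.4 CPM with EV-RV and 37.9 and 32.9 CPM with IRF4-RV (-0.23, standard error 0.0977, edgeR adjusted p = 0.146, and 0.0947 without IRF4-RV replicate 1). *Dcaf13* stood at 65.9 and 71.7 against 62.1 and 62.3 CPM (-0.15, standard error 0.082, edgeR adjusted p = 0.256). The other called genes, *Tsr1*, *Utp20*, *Nol6*, *Nop14*, *Noc4l* and *Bms1*, had log2 fold changes from -0.53 to -0.28. *Bms1*, a GTPase, was not called without EV-RV replicate 1 (edgeR adjusted p = 0.335) or IRF4-RV replicate 2 (0.28). *Noc4l* was not called without EV-RV replicate 2 (0.104) or IRF4-RV replicate 2 (0.136), and *Imp4* not without IRF4-RV replicate 2 (0.12). *Tsr1*, a GTPase-like factor of late small-subunit maturation, shares 32.3% of its exon length with *Srr* on the opposite strand, and without knowledge of the strand setting its value is uncertain.

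Of the 19 large-subunit genes 18 fell, against 13.7% of all genes tested. The median log2 fold change was -0.5 over all 19. The summed level was 2580 and 2610 CPM with EV-RV and 1780 and 1810 CPM with IRF4-RV. *Rrs1*, which brings the 5S RNP into the early large subunit, had the largest fall of all 60 genes (ENSMUSG00000061024, GRCm38 chromosome 1, 9545408 to 9547455, plus strand). It went from 146 and 147 to 76.8 and 79.7 CPM (-0.91, standard error 0.0736, edgeR adjusted p = 0.000138). *Ppan* went from 88.7 and 99.3 to 53.6 and 51.6 CPM (-0.84, standard error 0.0875, edgeR adjusted p = 0.000473). *Gnl3*, the nucleolar GTPase nucleostemin, went from 113 and 110 to 63.9 and 62.1 CPM (-0.82, standard error 0.0752, edgeR adjusted p = 0.000258). *Rrp1b* went from 64.5 and 63.5 to 39.7 and 35.5 CPM (-0.77, standard error 0.0899, edgeR adjusted p = 0.000858). *Nop16* went from 98.1 and 109 to 61.8 and 64.7 CPM (-0.71, standard error 0.0849, edgeR adjusted p = 0.000957). These 5 genes each fell by more than 38%, and the groups were far apart beside the differences within them. The exons of *Ppan* and *Gnl3* contain snoRNA genes on the same strand.

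The remaining large-subunit genes fell less. *Nop2*, a methyltransferase of the large-subunit rRNA, went from 153 and 154 to 92.3 and 97.6 CPM (-0.69, standard error 0.0744, edgeR adjusted p = 0.000541). *Noc2l* changed by -0.64, although it shares 20.9% of its exon length with *Samd11* on the opposite strand. *Mybbp1a*, a nucleolar protein that binds MYB, went from 482 and 424 to 319 and 306 CPM (-0.53, standard error 0.0844, edgeR adjusted p = 0.00353). *Nip7*, *Brix1*, *Ebna1bp2*, *Mrto4*, *Ftsj3*, *Nvl*, *Noc3l* and *Gnl2* lay between -0.56 and -0.31. *Gnl2*, a GTPase related to *Gnl3*, was not called without EV-RV replicate 1 (edgeR adjusted p = 0.173), IRF4-RV replicate 1 (0.155) or IRF4-RV replicate 2 (0.126). *Noc3l* was not called without EV-RV replicate 1 (0.169) or IRF4-RV replicate 2 (0.117). Within a library, *Gnl3* had 2.13 and 2.33 counts per count of *Gnl2* in the EV-RV libraries, and 1.61 and 1.51 in the IRF4-RV libraries.

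The PeBoW complex, made of *Pes1*, *Bop1* and *Wdr12* and needed to process the large-subunit rRNA, gave unequal values. *Bop1* went from 190 and 214 to 138 and 147 CPM (-0.5, standard error 0.0854, edgeR adjusted p = 0.00504). *Pes1* went from 169 and 170 to 142 and 143 CPM, a smaller change with little spread (-0.25, standard error 0.07, edgeR adjusted p = 0.0397). It was not called without IRF4-RV replicate 1 (edgeR adjusted p = 0.176) or replicate 2 (0.256). *Wdr12* stood at 86.9 and 98.6 CPM with EV-RV and at 85.5 and 85.6 CPM with IRF4-RV and was not called (-0.12, standard error 0.0866, edgeR adjusted p = 0.388). *Bop1* had 2.19 and 2.16 counts per count of *Wdr12* in the EV-RV libraries, and 1.62 and 1.72 in the IRF4-RV libraries. For *Pes1* over *Wdr12* the ratios were 1.94 and 1.72 against 1.67 and 1.67.

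The 2 EV-RV libraries differed more than the 2 IRF4-RV libraries for 40 of the 60 genes. The same count over all genes was not made. Over all genes, the chi-square per degree of freedom between the libraries of a group was 8.93 for EV-RV and 8.5 for IRF4-RV. The EV-RV libraries were over 20% apart for 6 members, and replicate 1 was the higher for 4 of them, *Nolc1* (27.7%), *Mphosph10* (24.8%), *Ncl* (23.7%) and *Bms1* (20.4%). The IRF4-RV libraries were over 20% apart for 1 member, *Utp20*.

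The rest of the pathway was read from lists of genes that are not members. Here genes that fell or rose are those called lower or higher, as were 13.7% and 16% of all genes tested. Of 36 other small-subunit factors 23 fell and 1 rose, with a median log2 fold change of -0.32. Of 51 other large-subunit factors, a list that holds the mitochondrial *Mrm3*, 30 fell and 3 rose, with a median of -0.35. *Lyar*, a nucleolar zinc-finger protein that stands in both lists, had the largest fall of the first at -0.57 (edgeR adjusted p = 0.00125), and *Utp3* rose by 0.31 (edgeR adjusted p = 0.0456). Among the large-subunit factors the helicase *Ddx31* fell by 0.66 on the log2 scale (edgeR adjusted p = 0.00212) and the helicase *Ddx24* rose by 0.5 (edgeR adjusted p = 0.00407). Of 12 snoRNP assembly factors 7 fell and 5 were not called, with a median of -0.28. *Naf1*, needed to make H/ACA particles, had the largest fall there, from 83.7 and 64.1 to 31.9 and 32.4 CPM (-1.2, standard error 0.129, edgeR adjusted p = 0.000539). The log2 fold changes of the H/ACA core genes reached -0.65.

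Of 24 tested genes of the RNA exosome and RNase MRP, which trim and cut the precursor, 13 fell and 1 rose, with a median of -0.28. The largest fall was that of *Rpp40* (-0.83, edgeR adjusted p = 0.003), and the exonuclease *Xrn2* rose by 0.3 (edgeR adjusted p = 0.0189). Of 28 further genes of RNA polymerases I and III 10 fell and 3 rose, with a median of -0.13. Beside both lists stand the 13.7% of all genes tested that were called lower and the 16% called higher. *Polr3g* and *Polr3gl* encode alternative forms of a polymerase III subunit. *Polr3g* went from 21.3 and 22 to 13.3 and 13.2 CPM (-0.7, edgeR adjusted p = 0.00189), and *Polr3gl* from 17.1 and 17 to 21.8 and 21 CPM (0.33, edgeR adjusted p = 0.0428). These were the largest fall and the largest rise of that list.

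The cytosolic ribosomal proteins, the parts that these factors assemble, gave mostly higher values. Of 80 tested 39 were called higher, against 16% of all genes tested, with a median log2 fold change of 0.22. This count turned on single libraries, rising or dropping widely with the library left out, while the median stayed between 0.14 and 0.31. With library size alone 12 were called higher, as were 1743 of all 14637 genes tested. The median was then 0.13, beside -0.083 for all genes tested. *Rpl3l*, the muscle form of a large-subunit protein, had the largest rise from 16 and 17 to 87 and 71 counts (2.14, edgeR adjusted p = 0.00316). Many ribosomal protein genes have near-identical pseudogenes, so that single values in this list are uncertain. No difference between this list and the biogenesis factors was tested.

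**Figure D4:**
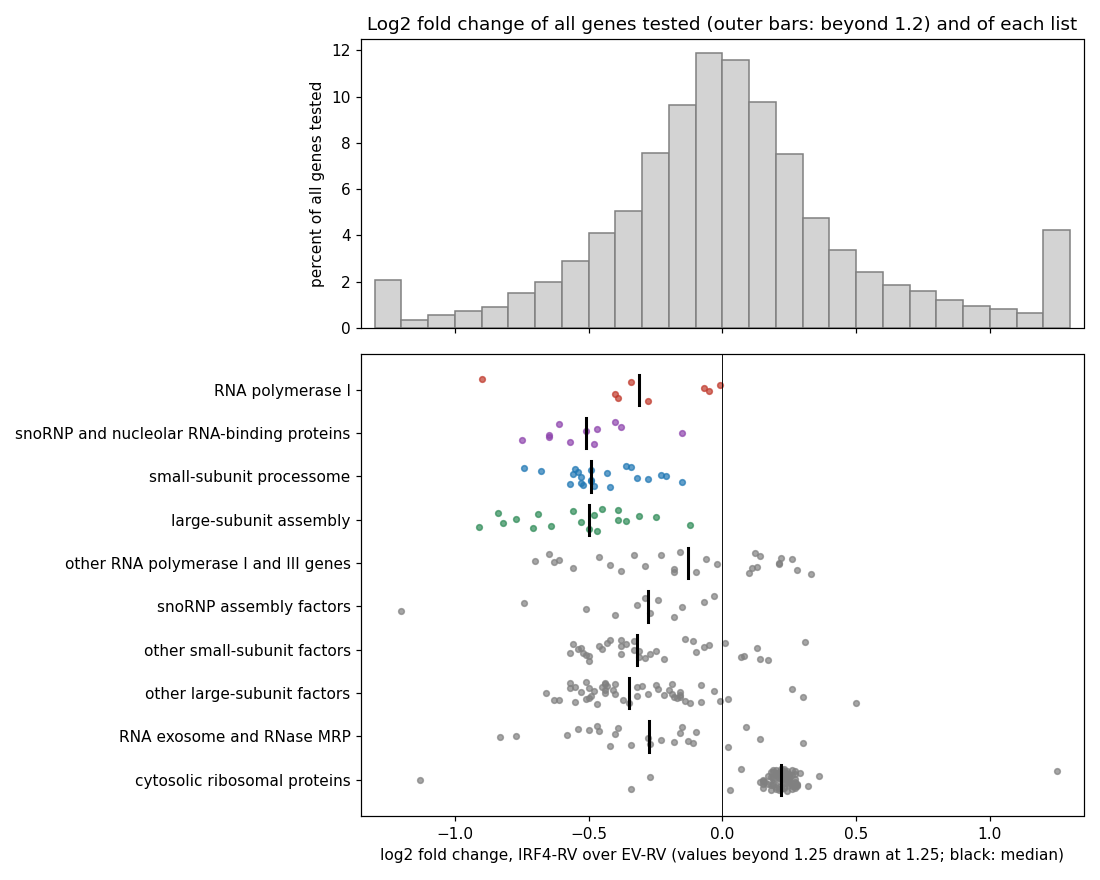
Upper panel, percent of the 14637 genes tested (y axis) by log2 fold change (x axis, IRF4-RV over EV-RV). Lower panel, the same scale for each gene of 10 lists, with black lines at the medians and the 4 lists of the 60 members in color. Medians of the member lists lie between -0.51 and -0.31, and that of the ribosomal proteins at 0.22.

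*Myc* is not a member, and its level is given because its product acts on genes of this pathway. It stood at 279 and 283 CPM with EV-RV and at 142 and 123 CPM with IRF4-RV (-1.09, standard error 0.0873, edgeR adjusted p = 0.000133). *Mycn* went from 46.6 and 38.3 to 23.9 and 23.9 CPM (-0.83, edgeR adjusted p = 0.0017). *Max*, the partner with which both bind DNA, went from 124 and 137 to 215 and 217 CPM (0.72, edgeR adjusted p = 0.000558). MYC with MAX binds the E-box, the letters CACGTG, which read the same on both strands. The part of these genes in the changes of the 60 members was not tested.

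Promoter windows from 250 bases before to 50 bases after the annotated start were available from RefSeq (GRCm38.p6) for 50 of the 60 members. Of these 50, 10 held the E-box, 20% against 8.09% of the 27025 genes with a window and 9.18% of the protein-coding ones. They were *Imp4*, *Nop2*, *Utp4*, *Utp20*, *Pes1*, *Mybbp1a*, *Tsr1*, *Utp18*, *Rrn3* and *Wdr43*. All 10 were called lower, with a median log2 fold change of -0.53, and 34 of the 40 members with a window lacking the E-box were called lower, with a median of -0.48. Members with and without the letters thus ranged over values that overlap, from -0.74 to -0.25 and from -0.9 to -0.01. A second set of letters, GGAAGTG on either strand, which ETS factors can bind, was in 21 of the 50 members, 42% against 13.9% of protein-coding genes. The letters GAAANNGAA on either strand, part of the interferon-type element that IRF factors can bind, were in 6, 12% against 9.58%. No E-box shared bases with GGAAGTG in these windows. A match of letters is a description of the window and not a binding site.

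The E-box of *Utp4*, *Utp20*, *Pes1*, *Mybbp1a*, *Tsr1* and *Wdr43* begins after the start, and that of *Imp4* before it. The 250 bases before the start are shown for 3 other members whose E-box, in capitals, lies upstream of the start. They were chosen as the largest fall of the processome (*Utp18*), the largest large-subunit fall with an E-box (*Nop2*) and the single RNA polymerase I gene with one (*Rrn3*, which holds 2). They lie at chr11:93885767-93886016 on the minus strand, chr6:125131633-125131882 on the plus strand and chr16:13780449-13780698 on the plus strand of GRCm38.p6.
Utp18: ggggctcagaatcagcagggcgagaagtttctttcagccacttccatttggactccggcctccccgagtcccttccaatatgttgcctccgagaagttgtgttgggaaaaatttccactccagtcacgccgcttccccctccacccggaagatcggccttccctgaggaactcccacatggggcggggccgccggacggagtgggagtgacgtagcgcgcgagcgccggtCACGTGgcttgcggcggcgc
Nop2: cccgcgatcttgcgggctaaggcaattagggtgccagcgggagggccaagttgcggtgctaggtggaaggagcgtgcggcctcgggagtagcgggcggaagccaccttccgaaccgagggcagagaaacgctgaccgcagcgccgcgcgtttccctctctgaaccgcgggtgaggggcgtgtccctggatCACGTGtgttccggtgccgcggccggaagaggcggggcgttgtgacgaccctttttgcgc
Rrn3: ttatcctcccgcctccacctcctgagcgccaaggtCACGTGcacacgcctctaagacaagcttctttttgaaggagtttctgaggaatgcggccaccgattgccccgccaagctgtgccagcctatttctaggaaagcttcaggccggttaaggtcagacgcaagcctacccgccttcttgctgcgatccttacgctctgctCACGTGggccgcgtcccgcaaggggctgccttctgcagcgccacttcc

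In *Utp18* the E-box begins 20 bases before the start and in *Nop2* 60 bases before it. In *Rrn3* the pair begin 215 and 48 bases before it. The log2 fold changes of *Utp18*, *Nop2* and *Rrn3*, whose levels are given above, were -0.74, -0.69 and -0.39.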

How the data were processed

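Per the labels and the study's methods, the authors aligned reads to GRCm38 with STAR (2.4.0j) and deposited raw counts per Ensembl gene from featureCounts, with no normalization. Strand and multi-mapping settings are not given in the sources used here. Of 55359 rows, 52083 matched GENCODE M21 (GRCm38), which gave symbols, coordinates and lengths, and the rest held between 0.203% and 0.486% of counts. Overlapping genes and near-identical copies are therefore uncertain.

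Groups and replicate numbers come from the sample titles. Counts passing filterByExpr were scaled with TMM and tested with edgeR 4.0.16 in R 4.3.3 (quasi-likelihood F test, Benjamini-Hochberg over all 14637 genes, FDR 0.1 as in the study, which used DESeq2). Standard errors are the log2 fold change over the root of F. The series calls the 2 libraries of a group biological replicates but does not say whether cultures or transductions were separate, so p-values measure the spread between these libraries, which may be technical. Depth was 31230223 to 37817752 counts, and 3 counts, the lowest level shown, are 0.0824 to 0.0952 CPM (counting error only).

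The members and lists were chosen with earlier results of these data known. *Ddx21* was placed with the nucleolar RNA-binding proteins and *Nat10* with the processome. Members were named in full by rule: the 5 largest changes of each subgroup, those not called, and the highest level per length. Of other lists the largest rise and fall were named, except the fall among the ribosomal proteins, which is not reported here. Complexes and count ratios were chosen after values were seen.

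The test was tried on 5 simulated tables of the EV-RV and IRF4-RV libraries (14637 genes, of which 200 had a known change). Among changed genes with a mean of at least 1000 counts, edgeR recovered 100% at a log2 change of 1 and 78.1% at 0.5, and 14.2% of all calls were false. Alternatives were DESeq2 1.42.0, other scalings and filters, a replicate block, an FDR of 0.05 and leaving out each library.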

Additional observations from a re-analysis of the deposited data

How the results depend on the processing

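Each member had at least 977 counts in every library, and neither depth nor the number of libraries was varied beyond leaving 1 out. Across the alternatives without a library left out, 49 to 57 of the 60 genes were called lower and 0 higher. Of all genes tested, between 6.56% and 20.3% were called lower in these alternatives. The 52 genes called lower were among those called in each except an FDR of 0.05, which kept 49. DESeq2 called the same 52. With each library left out in turn, where the lone library is assumed to vary like the others, fewer members were called lower. Fewer of all genes tested were also called lower then. RNA polymerase I kept 3 called genes at an FDR of 0.05 and 3 to 4 with a library left out, against 5, and *Polr1a* and *Ubtf* were the genes lost at 0.05. The replicate numbers are not stated to pair the libraries (deviations of same-numbered libraries correlated with Pearson's r = 0.29 across genes, which are not independent replicates). With the replicate block 56 were called lower, *Npm1*, *Nol10*, *Imp3* and *Dcaf13* in addition, and 6394 genes in all against 4349, with a median of -0.48 for the members. On simulated data 19.1% of the calls with the block were false. The simulated tables held no effect shared by same-numbered libraries, so this share cannot be carried over to the calls with the block here.

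The median log2 fold change was -0.57 with library size only for all 60 genes, -0.59 for large-subunit assembly, -0.4 for RNA polymerase I, -0.58 for the processome and -0.6 for the snoRNP genes. With at least 50 counts in 2 libraries it was -0.5 for all 60 and -0.53 for the snoRNP genes. With each library left out it ranged from -0.49 to -0.46 for all 60, from -0.59 to -0.45 for large-subunit assembly, from -0.36 to -0.2 for RNA polymerase I, from -0.54 to -0.45 for the processome and from -0.57 to -0.49 for the snoRNP genes. The log2 fold changes of 3 genes that were not called crossed 0 when a library was left out. They ranged from -0.17 to 0.03 for *Polr1c*, from -0.15 to 0.06 for *Polr1d* and from -0.07 to 0.02 for *Taf1d*. The cause of these changes was not tested.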
